A study of Homo sapiens with 4 samples.

Results

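Contacts of SAF-A with 4 noncoding RNAs of imprinted loci, KCNQ1OT1, H19, SNHG14 and MEG3, were read from CLIP-seq peak lists of HCT116 cells. A peak belonged to an RNA when its midpoint lay inside the interval of the gene on the strand of the transcript. Of 278959 peaks in 4 lists, 53 met this rule, and 32 of these lay in KCNQ1OT1, 21 in SNHG14, 0 in H19 and 0 in MEG3. The opposite strand of the same intervals held 23 peaks, 3 across from KCNQ1OT1 and 20 across from SNHG14. The opposite strand carries KCNQ1, a potassium channel gene, along the whole of KCNQ1OT1, and UBE3A, a ubiquitin ligase gene, along part of SNHG14.

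SAF-A, also called hnRNP U, is an abundant nuclear protein that binds RNA and chromatin. HCT116 is an established line from a human colorectal carcinoma, and the labels give its SAF-A as wild type. In CLIP-seq, ultraviolet light links a protein to the RNA it touches, the protein is pulled down with an antibody, and the attached RNA fragments are sequenced. The 2 pull-down samples were made with a SAF-A antibody, and the 2 input samples were taken from the same kind of lysate without the antibody step. In both groups the RNA came from the gel region at and just above the size of SAF-A. No treatment, mutant or second cell line enters the comparison.

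Imprinted genes are expressed mainly from the chromosome inherited from 1 parent. Their clusters usually contain a long noncoding RNA, and for some of these RNAs transcription or the RNA itself silences neighbouring genes on the same chromosome. KCNQ1OT1 is such a silencing RNA, made from the paternal chromosome and unspliced over most of its length. SNHG14 is also paternal, is the host of clustered small nucleolar RNAs and runs antisense into UBE3A, which in neurons it keeps silent on the paternal chromosome. H19 and MEG3 are maternally expressed, spliced RNAs and are hosts of microRNAs.

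The pull-down lists held 96061 and 111256 peaks, and the input lists 29386 and 42256. Read depth is unknown, so peak numbers are given per 10000 listed peaks as well as raw. Peaks had a median width of 15 bases in both pull-downs and of 14 and 16 bases in the inputs. The deposited score was at least 10 in every list, and 34.0% and 35.2% of the pull-down peaks and 39.5% and 41.2% of the input peaks scored 10 to 14. The labels do not say whether the replicates were separate cultures, and p-values therefore cover the spread among these 4 samples, which could be technical in origin. RNA levels were not analysed here, so little RNA and few contacts cannot be told apart.

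KCNQ1OT1 held the most peaks of the 4 RNAs. Its interval (GRCh37, chr11:2629558-2721224, minus strand) is 91.7 kb long, the same length to the base as the RefSeq gene on GRCh38.p14. The pull-downs listed 12 and 17 peaks there, and the inputs 1 and 2. That is 13.1 and 18.5 peaks per 100 kb in the pull-downs, against 1.09 and 2.18 in the inputs. Scaled to list length, KCNQ1OT1 took 1.39 ± 0.20 of every 10000 listed peaks in the pull-downs, against 0.41 ± 0.09 in the inputs (SD over n = 2 samples each). The groups did not overlap. The same order, with both pull-downs above both inputs, was seen in 30.7% of the 973 equally long windows of the genome with a mean of at least 5 peaks, so the order alone did not set the locus apart.

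The summed counts gave a pull-down to input ratio of 3.34 per listed peak, with an exact 95% interval of 1.04 to 17.1 that covers counting error only. The two-sided exact permutation test gave p = 0.333, the smallest value that 2 against 2 samples allow. In limma, fitted across the genome with 0.5 peaks added to each count, the log2 difference was 1.38 (SE 0.35), with a Benjamini-Hochberg adjusted p of 0.0107. In the same fit 15.0% of 1030 windows of 100 kb were called higher in the pull-downs and 39.8% were called lower. The median window stood at -0.58, and in a fit centred on it the value for KCNQ1OT1 was 1.99. This fit used a minimum mean of 5 peaks, chosen after the counts were seen, because none of the 8 intervals reached the planned mean of 10. The minimum applies to the mean over all 4 lists. KCNQ1OT1, with a mean of 8, passed it only through its pull-down counts, since the inputs listed 1 and 2 peaks. The adjusted p is thus not independent of the group in which the counts are high. With no minimum the adjusted p was 0.0103, and of 47774 windows 1.62% were called higher and 4988 were called lower. Only 1030 windows reached a mean of 5 peaks, so the 1.62% is mostly a share of windows with fewer peaks.

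When each list was shortened to its 29386 best-scoring peaks, each held 1 peak in KCNQ1OT1, the log2 difference was 0 and the interval had too few peaks to be tested. The tested windows also stood lower in these lists, with a median of -2.21. The call was lost when either pull-down was left out. Without pull-down replicate 1 the log2 difference was 1.52 (adjusted p = 0.0732 in limma), and without pull-down replicate 2 it was 1.24 (adjusted p = 0.187 in limma).

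**Figure D1:**
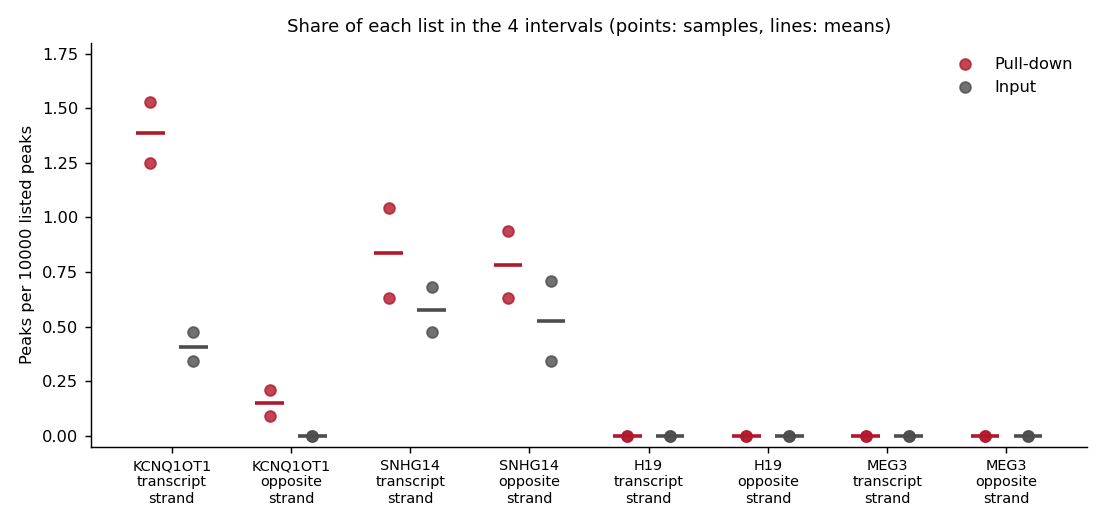
Peaks per 10000 listed peaks (vertical axis) in the 4 intervals on the transcript strand and on the opposite strand, pull-down in red on the left and input in grey on the right of each pair. Points are samples and lines are means of 2. KCNQ1OT1 on its own strand has means of 1.39 in the pull-downs, against 0.41 in the inputs, the samples of SNHG14 overlap on both strands, and H19 and MEG3 are at 0 throughout.

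The number of pull-down peaks in KCNQ1OT1 was high for a stretch of its length. Across 67514 windows of 91.7 kb on either strand, the mean was 1.42 peaks in pull-down replicate 1 and 1.65 in replicate 2. These windows tile both strands of each chromosome, with or without genes, so they do not rank KCNQ1OT1 among transcribed stretches. At least 12 peaks were listed in 195 windows of replicate 1 (0.289%) and at least 17 in 179 windows of replicate 2 (0.265%). The input counts were common by the same measure. At least 1 peak was found in 29.4% of the windows of input replicate 1, and at least 2 in 12.3% of those of input replicate 2.

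**Figure D2:**
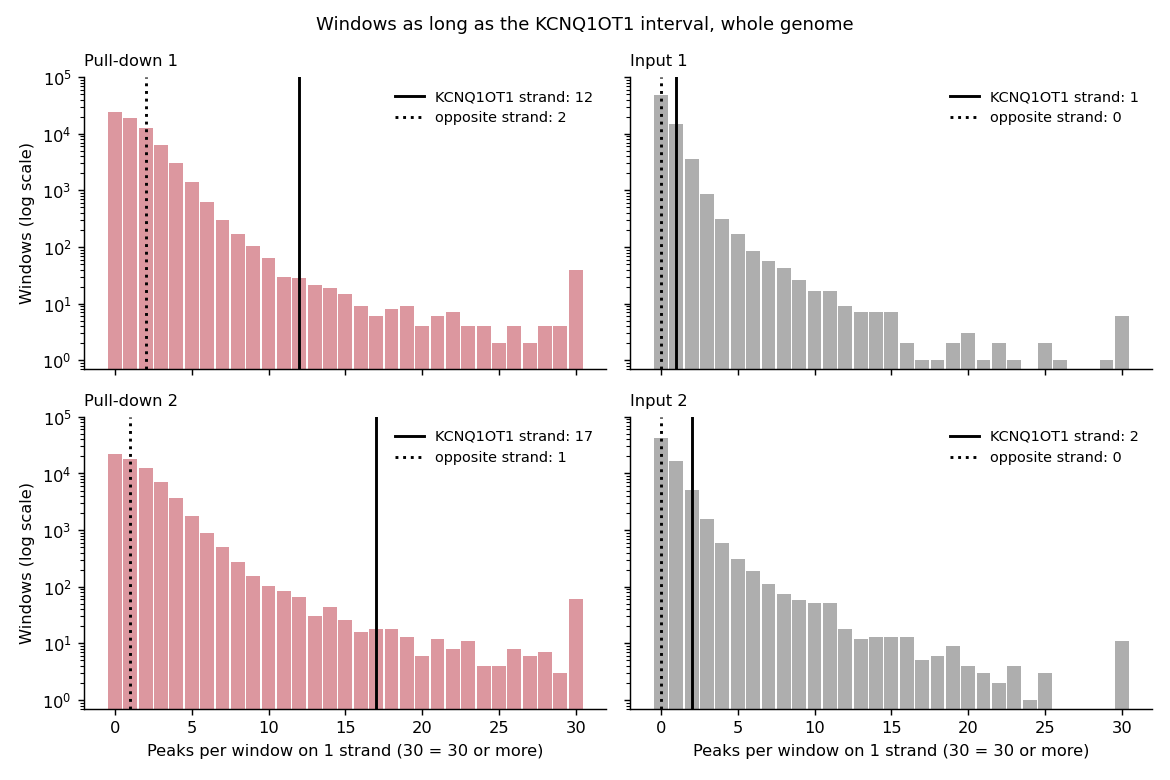
Windows as long as the KCNQ1OT1 interval by their number of peaks on 1 strand (horizontal axis, windows with 30 or more in the last bar), with the number of windows on a log scale, for each pull-down (left, red) and each input (right, grey). The solid line marks the KCNQ1OT1 strand, with 12 and 17 pull-down peaks against 1 and 2 input peaks, and the dotted line marks the opposite strand of the interval, with 2 and 1 pull-down peaks and no input peak.

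The peaks of the KCNQ1OT1 interval lay mostly on 1 strand and were few or none beyond its ends. On the opposite strand, that of KCNQ1, the pull-downs listed 2 and 1 peaks and the inputs 0 and 0. They formed 2 sites, and 1 of these, chr11:2696038-2696060, was in both pull-downs, with scores of 23 and 25. The KCNQ1OT1 strand thus held 12 of 14 pull-down peaks in replicate 1 (85.7%) and 17 of 18 in replicate 2 (94.4%). Over both pull-downs this was 29 of 32 (90.6%, 95% Wilson interval 75.8 to 96.8), and in the inputs it was 3 of 3. The flank of equal length beyond the 5′ end held 0 peaks on this strand in all 4 lists. The flank beyond the 3′ end held 1 and 2 peaks in the pull-downs, and both inputs had 0. The difference in strand share between the groups was -9.92 percentage points (exact permutation p = 0.333), and it rests on 3 input peaks.

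Along the transcript, the peaks of the first 45.8 kb and those of the last 45.8 kb differed in median width and score. The first 45.8 kb, counted from the 5′ end, held 20 of the 29 pull-down peaks, 8 in replicate 1 and 12 in replicate 2. These 20 peaks had a median width of 49.5 bases, 10 of them were at least 50 bases wide, and 17 scored 10 to 14, with no score above 19. The 9 peaks of the last 45.8 kb had a median width of 15 bases, 1 of them was wide, and 6 scored 20 or more, up to 42. The first set was thus wider and lower-scoring at the median, and the second had the median width of the pull-down lists. The sets overlapped in width and in score, and the difference was not tested.

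Few of these peaks were listed a second time. Of the pull-down peaks in KCNQ1OT1, 4 of 12 in replicate 1 overlapped a peak of replicate 2 (33.3%, Wilson interval 13.8 to 60.9), and 4 of 17 in replicate 2 overlapped one of replicate 1 (23.5%, 9.56 to 47.3). In the whole lists the shares were 65.6% and 56.7%. The shares in KCNQ1OT1 were below those of the lists in both score classes, on few peaks. Among peaks scoring 10 to 14, 2 of 7 in replicate 1 (28.6%) and 2 of 13 in replicate 2 (15.4%) were found again, against 50.5% and 35.0% of such peaks in the lists. Among peaks scoring more than 14, it was 2 of 5 (40.0%) and 2 of 4 (50.0%), against 73.4% and 68.4%. These differences were not tested. Of the sites of all 4 lists, 1 of 20 in the first 45.8 kb was found in both pull-downs, and in the last 45.8 kb 3 of 6 were. The 20 include chr11:2691441-2691488, which was in input replicate 2 only.

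Merged by overlap, the 32 peaks of all 4 lists formed 26 sites, 22 of which were in a single list. The sites found in both pull-downs and in neither input were chr11:2641468-2641480, 79.8 kb from the 5′ end, with scores of 12 and 11, and chr11:2705610-2705671, 15.6 kb from the 5′ end, with scores of 10 and 11. Input-free sites were thus 2 of the 4 sites shared by both pull-downs, near the 57.0% among all 62968 shared sites of the lists. The stronger repeated sites, named after their values were seen, each also had a peak in 1 input. At chr11:2661816-2661907 the pull-downs scored 27 and 28, and input replicate 1 had 12. At chr11:2670239-2670393 the pull-downs scored 23 and 29, and input replicate 2 had 10. Scores of different lists share no stated scale, so here and below they are given per list and not compared between groups. Another 21 sites were in 1 pull-down only and 1 site, chr11:2691441-2691488, was in input replicate 2 only.

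**Figure D3:**
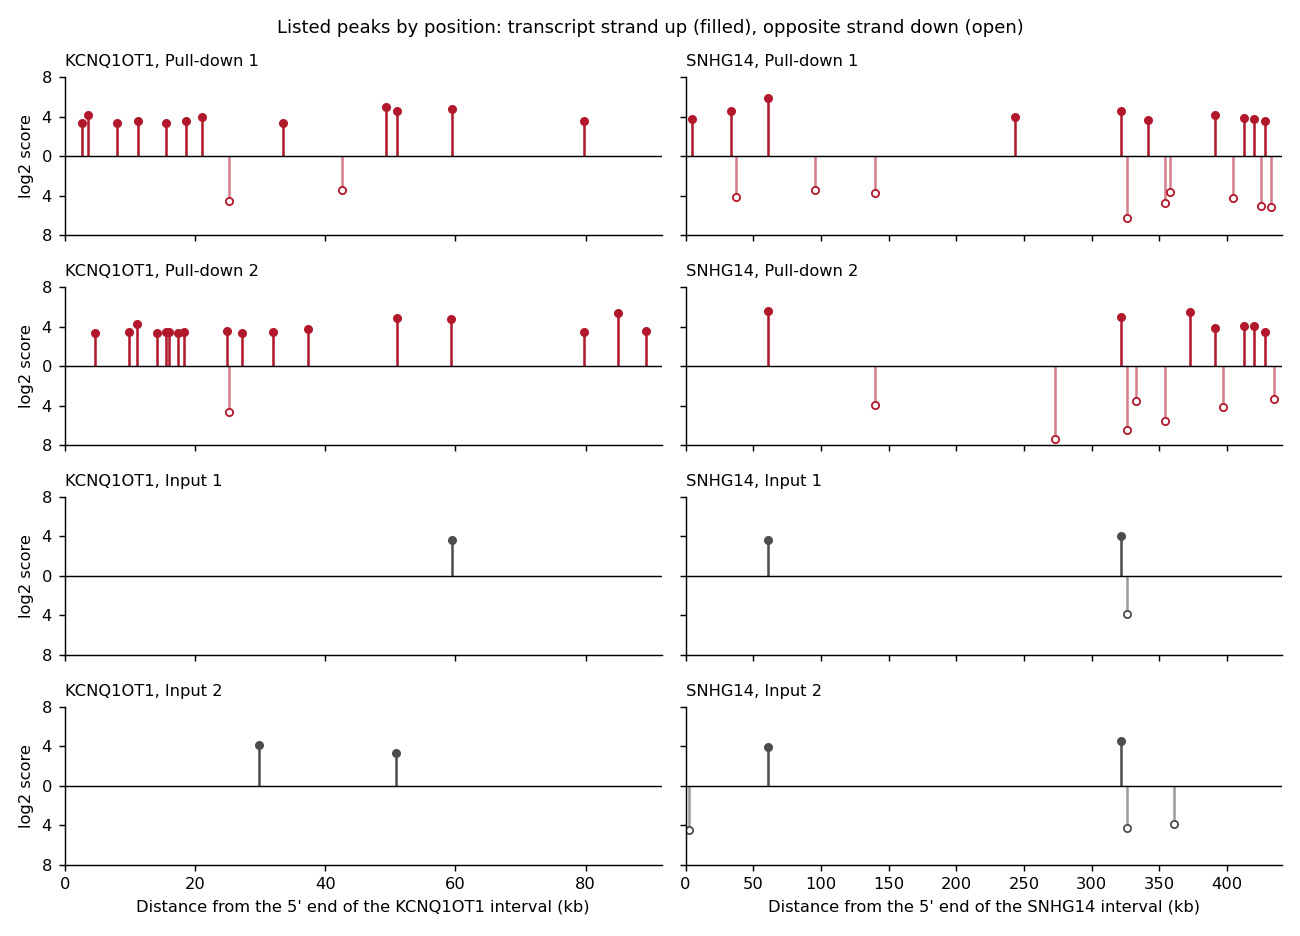
Listed peaks along KCNQ1OT1 (left) and SNHG14 (right) by distance from the 5′ end of the interval in kb, with log2 of the deposited score as height, for the pull-downs (upper 4 panels, red) and the inputs (lower 4 panels, grey). Filled points above the line are on the transcript strand and open points below it on the opposite strand. The pull-downs have 12 and 17 peaks on the strand of KCNQ1OT1, 20 of the 29 in the first 45.8 kb, and SNHG14 has peaks on both strands.

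The strongest peak of KCNQ1OT1 in pull-down replicate 1 ranked 26643 of 96061, and that in replicate 2 ranked 20621 of 111256. Neighbouring peaks lay a median of 4.28 kb apart in replicate 1 and 4.54 kb apart in replicate 2. These values describe many weak peaks spread over the transcript, with no peak near the top of its list. A total of 173 windows of the same length had at least 29 pull-down peaks, the number in KCNQ1OT1, so none of them held fewer. In KCNQ1OT1 27.6% of the pull-down peaks were found in the other pull-down, against a median of 49.2% in these windows, and 8 of the 173 had a smaller share. Wide peaks made up 37.9% in KCNQ1OT1, against a median of 42.5%, and peaks scoring 10 to 14 made up 69.0%, against a median of 59.1%. The share of peaks on the counted strand was 90.6% in KCNQ1OT1, against a median of 94.1%, and 121 of the 173 windows had a larger share. KCNQ1OT1 was thus lower than most dense windows in repeated peaks, while a strand share such as its own was common among them. Peak numbers were not matched in this comparison, and the differences were not tested.

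**Figure D4:**
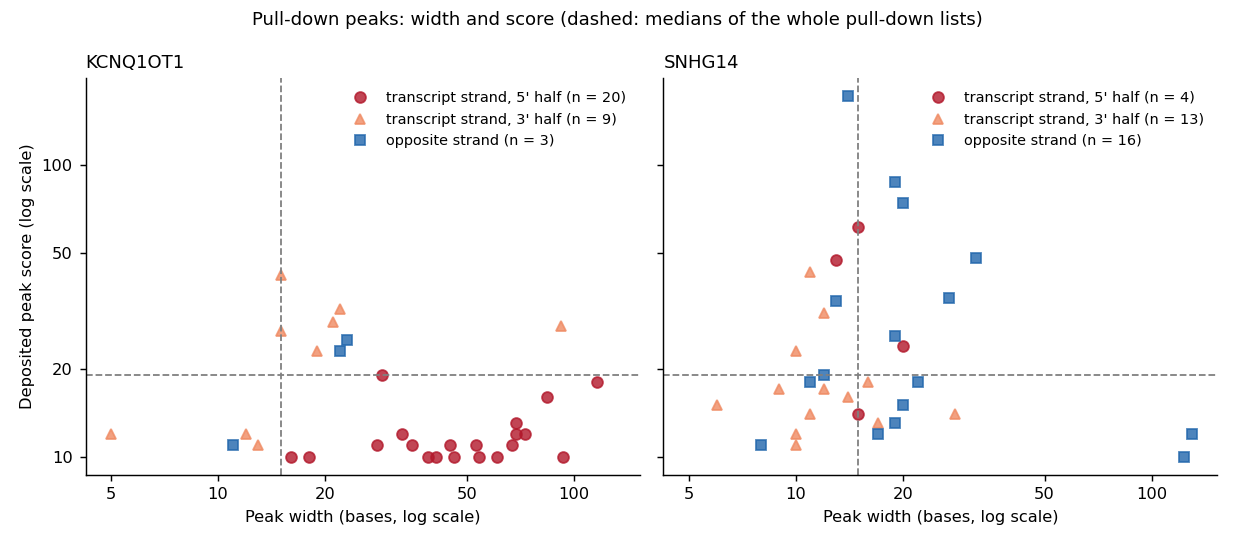
Width in bases (horizontal axis, log) and deposited score (vertical axis, log) of the pull-down peaks in KCNQ1OT1 (left) and SNHG14 (right), with transcript-strand peaks split at the middle of the interval and opposite-strand peaks as squares. Dashed lines mark the median width of 15 bases and the median score of 19 of the pull-down lists. In KCNQ1OT1 the 20 peaks 5′ of the middle score at most 19 and have a median width of 49.5 bases, and in SNHG14 all 17 transcript-strand peaks are 6 to 28 bases wide.

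SNHG14 held peaks at about the density of the rest of the genome, on both of its strands. The interval used (GRCh37, chr15:25223730-25664609, plus strand) is 441 kb long and is shorter than the RefSeq gene, which spans 596 kb on GRCh38.p14. The RefSeq gene contains 30 genes of the SNORD116 cluster and 48 of the SNORD115 cluster, small nucleolar RNAs processed from its introns. On the transcript strand the pull-downs listed 10 and 7 peaks and the inputs 2 and 2. That is 2.27 and 1.59 peaks per 100 kb in the pull-downs, against 0.454 in each input. Windows of this length held a mean of 6.83 and 7.91 pull-down peaks, against 2.09 and 3.01 input peaks, close to these counts.

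Per 10000 listed peaks, SNHG14 had 0.84 ± 0.29 in the pull-downs, against 0.58 ± 0.15 in the inputs (SD over n = 2 samples each). The samples overlapped, since pull-down replicate 2 had 0.629 and input replicate 1 had 0.681. Both pull-downs lay above both inputs in 31.2% of the 5763 windows of this length with a mean of at least 5 peaks. The ratio of summed counts was 1.47 (exact 95% interval 0.479 to 6.0), and the log2 difference of 0.27 (SE 0.43) did not pass the test in limma (adjusted p = 0.610). The ratio of 3.34 seen in KCNQ1OT1 lies within the exact interval of SNHG14, which covers counting error only. The limma differences of the loci, 0.27 (SE 0.43) and 1.38 (SE 0.35) in KCNQ1OT1, were not tested against each other.

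The opposite strand of SNHG14, which carries UBE3A along only part of its length, gave much the same numbers. On GRCh38.p14 the RefSeq genes overlap by 85.7 kb, and peaks were not assigned to UBE3A. On this opposite strand the pull-downs listed 9 and 7 peaks, and the inputs 1 and 3. The log2 difference was 0.33 (SE 0.46, adjusted p = 0.557 in limma), and per 10000 listed peaks the groups again overlapped. The transcript strand held 17 of the 33 pull-down peaks of the interval (51.5%, Wilson interval 35.2 to 67.5) and 4 of the 8 input peaks (50.0%, 21.5 to 78.5). The peaks of SNHG14 were thus divided between the strands, while 29 of 32 lay on the KCNQ1OT1 strand of its own interval. By pull-down replicate, the transcript-strand share was 52.6% and 50.0% in SNHG14, against 85.7% and 94.4% in KCNQ1OT1. Some peaks of 1 pull-down overlap a peak of the other, so the summed peaks are not independent. These shares were not tested against each other. The flanks of SNHG14 also resembled the interval, but the RefSeq gene is longer than the interval, so they can hold part of the gene. On the transcript strand the pull-downs listed 7 and 8 peaks in the 5′ flank, against 1 and 4 in the inputs. In the 3′ flank the pull-downs listed 5 and 7, against 1 and 3 in the inputs.

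Within SNHG14 the transcript-strand peaks were narrow. Of the pull-down peaks, 6 of 10 in replicate 1 and 6 of 7 in replicate 2 overlapped a peak of the other pull-down, which is 60.0% and 85.7%, against 65.6% and 56.7% in the whole lists. On the opposite strand it was 3 of 9 and 3 of 7. None of the 17 was wide, and their widths ran from 6 to 28 bases. In the pull-downs 13 of the 17 lay on the 3′ side of the middle of the interval. On the opposite strand 12 of 16 pull-down peaks lay on the same side. The gathering of peaks towards this end was thus seen on both strands.

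The 11 transcript-strand sites of SNHG14 included 2 that were in all 4 lists. The site chr15:25284757-25284776 had scores of 61 and 47 in the pull-down lists, and of 12 and 15 in those of the inputs. The site chr15:25545028-25545039 had scores of 23 and 31 in the pull-down lists, and of 16 and 23 in those of the inputs. Of the other sites, 4 were in both pull-downs and in neither input, at 391 to 428 kb from the 5′ end of the 441 kb interval. The 3 with the best mean rank were chr15:25636068-25636076 (scores of 15 and 17), chr15:25614485-25614512 (18 and 14) and chr15:25643303-25643318 (14 and 17). The remaining one, chr15:25651983-25651992, scored 12 and 11. Input-free sites were thus 4 of 6 sites shared by both pull-downs, near the 57.0% among all 62968 shared sites of the lists.

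On the opposite strand of SNHG14 there were 15 sites, and 12 of them were in a single list. The site in all 4 lists, chr15:25550007-25550026, had scores of 74 and 87 in the pull-down lists, and of 15 and 20 in those of the inputs. The sites in both pull-downs and in neither input were chr15:25577976-25578007, with scores of 26 and 48, and chr15:25363407-25363426, with scores of 13 and 15. These were 2 of 3 sites shared by both pull-downs, against 57.0% input-free among all shared sites of the lists. In pull-down replicate 2 the best-ranked peak of the 4 intervals, at rank 1364 of 111256 with a score of 171, was chr15:25496797-25496810, which had no counterpart in replicate 1. It was named after its value was seen. No site of either interval was in both inputs without a pull-down peak.

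H19 and MEG3 had no listed peak on either strand in any of the 4 samples. H19 (GRCh37, chr11:2016406-2019065, minus strand) spans 2.66 kb here, less than the 6.09 kb of the RefSeq gene on GRCh38.p14, and MEG3 (GRCh37, chr14:101292445-101327360, plus strand) spans 34.9 kb. A count of 0 allows up to 3 peaks as a one-sided 95% limit (3.69 as the upper end of a two-sided exact interval), and 3 peaks are 0.312 and 0.270 per 10000 listed peaks in the pull-downs, against 1.02 and 0.710 in the inputs. A count of 0 was usual for stretches of these lengths across the whole genome. The windows compared tile both strands of each chromosome, with or without genes. They do not show how usual a count of 0 is for a transcribed gene. Of all windows as long as H19, 96.1% and 95.6% held no peak in the pull-downs, against 98.8% and 98.3% in the inputs. For the length of MEG3 the shares were 63.5% and 60.5% in the pull-downs, against 86.9% and 82.5% in the inputs. A density like that of KCNQ1OT1 was not detectable in H19 at this length, because there a count of 0 allows up to 113 peaks per 100 kb. For MEG3 the limit is 8.59 peaks per 100 kb, below the 13.1 and 18.5 counted in KCNQ1OT1 in the pull-downs. The two-sided exact 95% intervals of those KCNQ1OT1 counts reach down to 6.20 and 9.90 peaks in 91.7 kb. These are counts and not densities per 100 kb, and the MEG3 limit is one-sided, so the limits cannot be set against each other directly. The densities were not tested against each other. Densities here are per kb of the gene, introns included.

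Both RNAs contain microRNAs, short RNAs cut from the longer transcript, and their mature sequences are given to show which products come from the intervals without a peak. They are from RefSeq (GRCh38.p14), 5′ to 3′, with the seed (bases 2 to 8) in capitals, and the 3 seeds differ from each other. The first 2 come from H19 and the last from MEG3.
hsa-miR-675-5p: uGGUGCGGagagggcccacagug
hsa-miR-675-3p: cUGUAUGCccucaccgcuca
hsa-miR-770-5p: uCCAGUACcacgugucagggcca
The hosts of these microRNAs held 0 of the 53 peaks.

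The nearest peaks on the same strand lay well outside both genes. For H19 they were 43.2 and 81.8 kb away in the pull-downs and 30.5 kb away in both inputs, all beyond the 3′ end. For MEG3 both pull-downs had the same site 25.2 kb beyond the 3′ end, chr14:101352531-101352543, with scores of 54 and 51. The nearest input peaks lay 103 and 33.9 kb before the 5′ end of MEG3. That site was picked for its nearness to MEG3 and was not assigned to a gene.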

How the data were processed

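Every sample has its own peak list, deposited by the authors, and none pools samples. Each deposited list gives positions in bases, a strand and a score set by the authors, a whole number whose meaning is not stated in the sources used here. Scores served for ranks and filters inside 1 list at a time. STAR, featureCounts and GRCh38 are named in the submitters' processing notes without versions, and the peak caller is not given in the sources used here. Positions were taken as GRCh37: of the KCNQ1OT1 peaks, 7 of 12 and 8 of 17 in the pull-downs lie beyond the 5′ end that the gene has on GRCh38.p14, and none in any list lies in the stretch that GRCh38 would add at the other end. They are printed 1-based, so each printed start is 1 base above the start in the files. The gene annotation used here is RefSeq on GRCh38.p14 and served for names, lengths and microRNA sequences, so sites were not assigned to exons or introns and no peak sequence was read. The strand column was checked on the mitochondrial rRNA genes, which lie on the plus strand: all 20 and 24 peaks there in the pull-downs and all 42 and 56 in the inputs were on the plus strand.

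The members and lists were chosen with earlier results of these data known. All 4 RNAs and their opposite strands were described. Up to 3 input-free sites and up to 3 sites found in all 4 lists were named per interval and strand, by mean score rank, and other named sites are marked in the text. Peaks were assigned by midpoint and matched on the same strand where they shared 1 base or more. An input-free site was in both pull-downs and overlapped no input peak. Wide peaks had at least 50 bases. Peak numbers were tested on a log2 scale, as the number (0.5 added) per 10000 peaks of the list, in limma 3.58.1 (lmFit and eBayes with a mean trend, R 4.3.3). The fit held the 8 intervals and all 100 kb windows on each strand with a minimum mean number of peaks, adjusted by Benjamini-Hochberg at 0.05. No interval reached the planned minimum of 10, so a minimum of 5 was added after the counts were seen. Shares carry 95% Wilson intervals, and ratios of summed counts carry exact binomial ones. Both cover counting error only, and peaks near each other are not independent. Read depth is unknown. Group values are means ± SD over 2 samples. Alternatives covered list length, score, width, minimum count, added count, scaling, window size, overlap, replicate block and left-out replicates. Python 3.11.15 was used with scipy 1.17.1.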

Additional observations from a re-analysis of the deposited data

How the results depend on the processing

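The log2 difference of KCNQ1OT1 stayed above 0 and past the threshold in 10 of 16 alternatives. Several of these, such as other window sizes, no minimum and a replicate block, keep the counts of the interval. There the difference itself could not move. No call was made in any subset of peaks by score or width, most of which could not be tested. The log2 difference was 0 in lists of equal length and 0.64 in the better-scoring 50%, where too few peaks remained for a test. It was 0.91 with narrow peaks only (adjusted p = 0.200 in limma) and 1.69 with wide peaks only, where it was not tested. Leaving out each sample gave 1.24 to 1.52, and the call was lost without either pull-down, which leaves that group with 1 sample assumed to vary like the inputs. Adjusted p ran from 0.000556 to 0.200 over these alternatives. SNHG14 was past the threshold under none of its alternatives. On the transcript strand it was -0.37 in lists of equal length, and -0.074 without pull-down replicate 1 (-0.074 to 0.62 over all left-out samples). On the opposite strand it was -0.30 with wide peaks only, and -0.021 without input replicate 1 (-0.021 to 0.68 over all left-out samples). The difference in strand share for KCNQ1OT1 was 0 percentage points in lists of equal length and -16.3 with narrow peaks only. It could not be computed where an input kept no peak.

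Replicate numbers are shared between the groups, but the labels do not say that they pair samples, and deviations of same-numbered samples correlated at 0.173 over 190 windows. With a replicate block the numbers of higher and lower windows were 81 and 65, the log2 difference of KCNQ1OT1 stayed 1.38, its adjusted p was 0.00188, and no other interval was called.

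Input-free sites in lists of equal length numbered 0 in each interval, against 2 in KCNQ1OT1, 1 across from it, 4 in SNHG14 and 2 across from that. With an overlap of 50% of both peaks KCNQ1OT1 had 1. In the better-scoring 50% SNHG14 had 1 on each strand. At the planned minimum, 83 of 190 windows were higher in the pull-downs and 63 lower. The numbers of higher and lower windows were 0 and 15 in lists of equal length, 7 and 10 in the better-scoring 50%, and 39 and 13 with narrow peaks only. They were 7 and 4 with wide peaks only, 31 and 14 at a minimum of 20, 154 and 410 at a minimum of 5, and 773 and 4988 with none. Without each sample they ran from 30 to 95 and from 55 to 68. Windows of 50 kb gave 38 lower and those of 200 kb 147. How much of each list reflects read depth cannot be told from peaks.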
